A study of Mus musculus with 2 samples.

Results

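WNT ligands, their receptors and their antagonists were followed in breast tumour tissue of mice that received a PD-1 inhibitor with or without acupuncture. Genes were taken by symbol: the Wnt, Fzd, Sfrp, Dkk and Rspo families, together with Lrp5, Lrp6, Axin1, Axin2, Ctnnb1, Apc, Lgr4, Lgr5, Znrf3, Rnf43, Wif1, Tcf7l1 and Tcf7l2. Of 54 such symbols, 45 reached 20 counts over both libraries, out of 18687 genes that did so in the whole table of 35602 symbols. Near that limit, Fzd10 was inside with 15 counts in the acupuncture library and 13 in the PD-1 inhibitor library, and Rspo4 was outside with 2 in the acupuncture library and 8 in the PD-1 inhibitor library. The mice of the first group were given the PD-1 inhibitor intraperitoneally plus acupuncture, and those of the other group the same injection alone, so both groups carried PD-1 blockade. Each group was 1 library of messenger RNA, with 60752043 counts for acupuncture plus PD-1 inhibitor and 105728292 counts for the PD-1 inhibitor alone. The sources used here do not give the strain, tumour model, age or number of animals behind a library. With 1 library per group no difference has a replicate check, no test between groups was possible, and each interval printed is a 95% counting interval.

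WNT ligands are secreted, lipid-modified glycoproteins that bind a Frizzled receptor together with the co-receptor LRP5 or LRP6. Binding disarms the complex of Axin, Apc and kinases that marks beta-catenin for destruction, and beta-catenin then acts with TCF and LEF proteins at target genes. Secreted Frizzled-related proteins and Wif1 bind WNT ligands outside the cell, Dickkopf proteins bind LRP5 and LRP6, and R-spondins act through LGR receptors to withdraw the ubiquitin ligases Znrf3 and Rnf43, which remove Frizzled from the membrane. In the mammary gland WNT signals take part in branching and in stem cell maintenance, and Wnt1 is a classical oncogene of mouse mammary tumours.

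The ratio divides the level in the acupuncture library by that in the PD-1 inhibitor library. Genes were called higher or lower from a 2-fold difference on, provided that the counting interval excluded 1. Of the 45 genes 6 were listed as higher (Lgr5, Wnt16, Dkk2, Fzd4, Sfrp4 and Sfrp5), 1 as lower (Wif1), and 38 lay between. That is 13.3% higher and 2.22% lower, against 9.21% higher and 4.9% lower over all 18687 genes. The number lower is a single gene, and the share higher stands near the share over all genes. The median log2 ratio was -0.03 over the 45 genes and 0.0003 over all genes, so the medians lay close together, and that of the 45 genes turned positive under scaling by total counts (0.07), by totals without the 10 most abundant genes (0.07) and by the epithelial marker list (0.45). The members differed by role. Of 14 ligands 10 had an interval wholly below 1, while 4 of the 5 genes for secreted Frizzled-related proteins and Wif1 had an interval wholly above 1. Over all genes 34.8% had an interval below 1 and 35.1% had one above 1.

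Of the 7 listed genes, 5 had a promoter entry in RefSeq, and the 250 bases before their gene start are shown because these are the genes the results turn on. They run 5′ to 3′ on the strand of the gene in build GRCm38.p6, which is not the build of the counts, at chr6:22287977-22288226 (plus strand) for Wnt16, chr7:89404116-89404365 (plus strand) for Fzd4, chr19:42202253-42202502 (minus strand) for Sfrp5, chr3:132085042-132085291 (plus strand) for Dkk2 and chr10:121033754-121034003 (plus strand) for Wif1. Capitals mark 4 short motifs on either strand. The GC box was searched as the hexamer GGGCGG. The CCAAT box was searched by the letters of its name. For the TATA box the letters searched were TATAAA. The TCF/LEF core was the pentamer CTTTG followed by a pair of bases that are each adenine or thymine.
Wnt16: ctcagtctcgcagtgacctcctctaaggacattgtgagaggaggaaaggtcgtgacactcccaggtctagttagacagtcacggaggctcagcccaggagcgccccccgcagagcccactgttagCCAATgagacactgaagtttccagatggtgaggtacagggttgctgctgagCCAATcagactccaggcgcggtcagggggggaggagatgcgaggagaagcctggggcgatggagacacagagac
Fzd4: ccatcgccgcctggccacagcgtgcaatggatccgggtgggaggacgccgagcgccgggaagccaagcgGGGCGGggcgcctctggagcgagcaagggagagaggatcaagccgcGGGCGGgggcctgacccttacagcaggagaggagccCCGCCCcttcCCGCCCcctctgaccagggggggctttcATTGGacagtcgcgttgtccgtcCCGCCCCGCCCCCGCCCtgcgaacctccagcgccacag
Sfrp5: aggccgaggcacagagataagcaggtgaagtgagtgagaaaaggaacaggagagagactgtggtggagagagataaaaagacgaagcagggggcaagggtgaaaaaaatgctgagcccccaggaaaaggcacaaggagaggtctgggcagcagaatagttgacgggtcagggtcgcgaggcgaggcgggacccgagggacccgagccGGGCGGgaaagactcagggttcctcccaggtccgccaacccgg
Dkk2: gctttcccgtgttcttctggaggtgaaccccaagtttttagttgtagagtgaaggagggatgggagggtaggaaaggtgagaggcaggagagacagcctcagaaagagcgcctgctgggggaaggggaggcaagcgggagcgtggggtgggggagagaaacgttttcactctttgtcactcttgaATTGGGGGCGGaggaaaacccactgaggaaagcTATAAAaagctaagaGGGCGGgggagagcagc
Wif1: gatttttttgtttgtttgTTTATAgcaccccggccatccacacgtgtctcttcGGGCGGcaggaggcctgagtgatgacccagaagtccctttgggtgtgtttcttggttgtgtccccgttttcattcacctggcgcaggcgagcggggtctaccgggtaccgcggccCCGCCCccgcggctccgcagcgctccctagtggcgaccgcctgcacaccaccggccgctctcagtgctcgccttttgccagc

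The promoters of the 4 genes listed as higher differed in what they held. Fzd4 had 7 GC boxes, some of them overlapping, in a window of 72.8% G and C. Dkk2 had a TATA box starting 32 bases before the gene start (position -32), 2 GC boxes and 1 CCAAT box. That CCAAT box directly adjoins a GC box without sharing a base with it. Wnt16 had 2 CCAAT boxes and no GC box. Sfrp5 had 1 GC box and Wif1 had 2, and the reversed TATA letters of Wif1 stood far upstream, at position -232. None of the 5 windows held the TCF/LEF core, which 14.8% of 32851 promoter windows of the same length held. A GC box stood in 32.7% of those windows, a CCAAT box in 33.8% and a TATA box in 12.4%. The median window had 52.4% G and C, below each of these 5, which ranged from 55.6% in Dkk2 to that of Fzd4. These matches describe letters in the windows and not binding.

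Levels here are scaled CPM, counts per 1000000 of the library size after scaling, and levels of different genes are set against each other only per kilobase of exon (CPM per kb). Wnt7b, a ligand made by epithelium, was the most abundant ligand by far. It stood at 37.4 CPM per kb in the acupuncture library and 56.0 in the PD-1 inhibitor library, which was 66.1% of the level of all 14 ligands with acupuncture and 69.5% without it. Wnt9a followed in the acupuncture library at 4.24 CPM per kb and Wnt10a in the PD-1 inhibitor library at 5.36, and Wnt16 was last there at 0.0449. The order of the ligands therefore differed below the top. Wnt3a, Wnt8a and Wnt8b had 0 counts in both libraries, Wnt3 had 4 counts with acupuncture and 0 without it, and Wnt9b had 2 with acupuncture and 3 without it, so these 5 symbols stayed under the count limit.

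**Figure D1:**
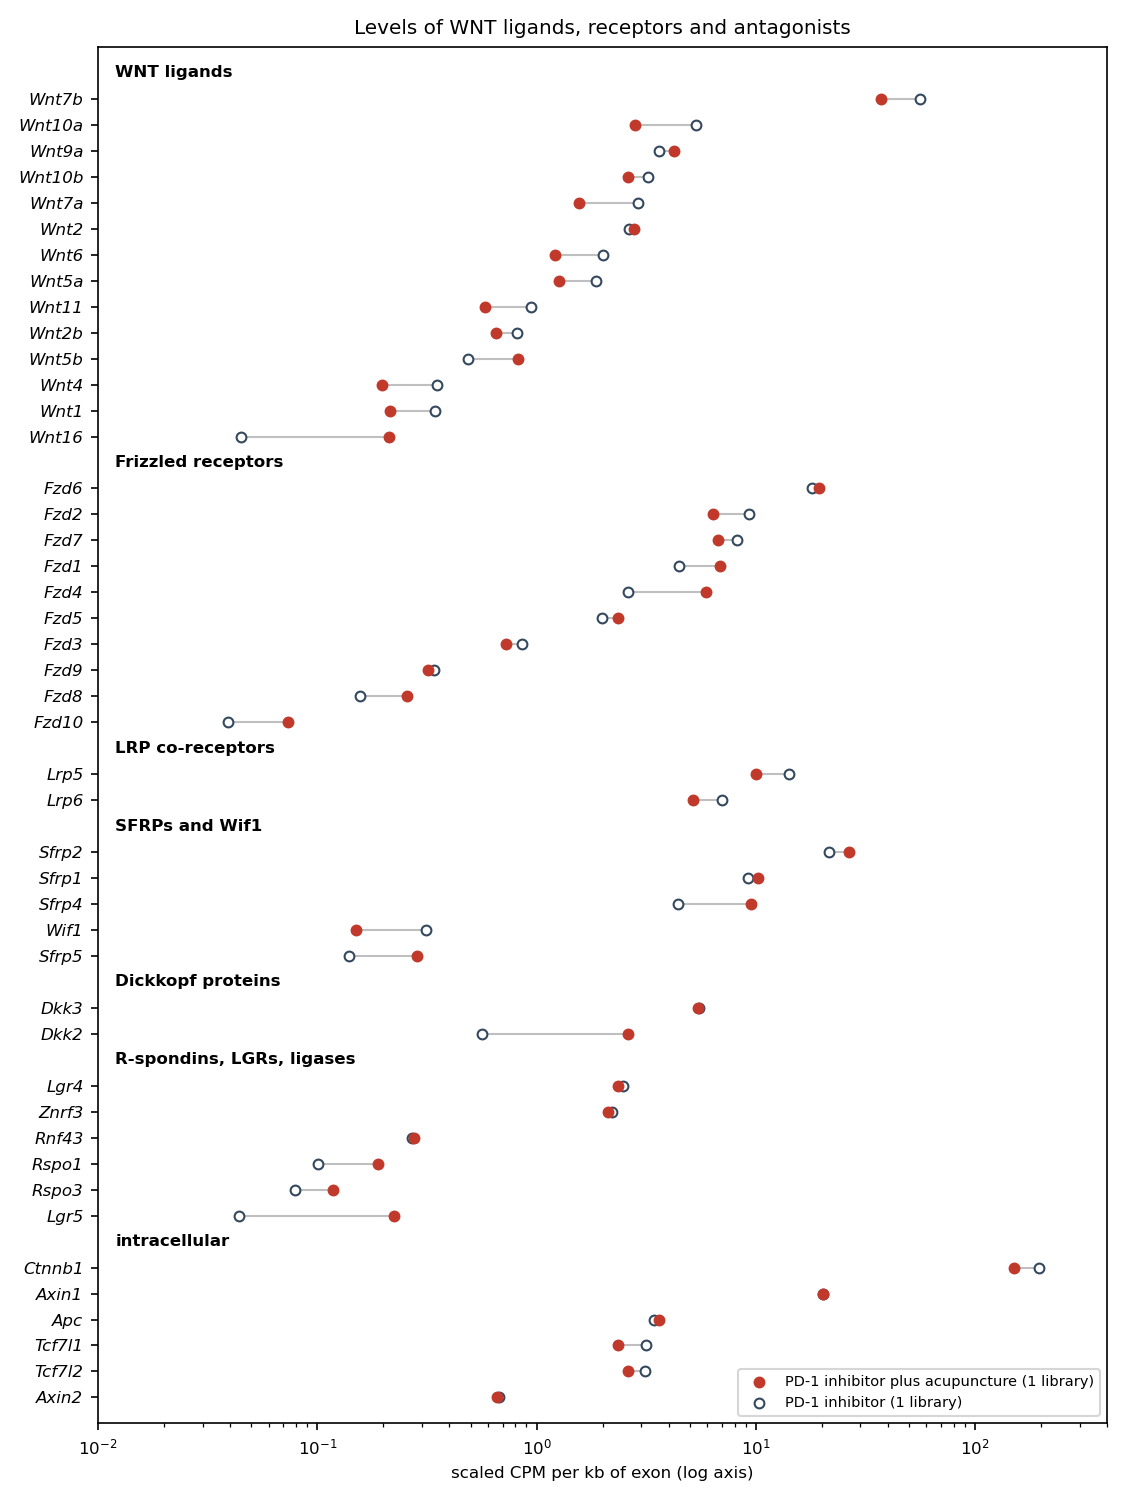
Level of each of the 45 genes in scaled CPM per kb of exon on a log axis, with filled points for acupuncture plus PD-1 inhibitor and open points for the PD-1 inhibitor without acupuncture, grouped by role and ordered by the level without acupuncture. Wnt7b stands apart from the other ligands at 37.4 CPM per kb with acupuncture and 56.0 without it, and the widest gaps between points are those of Wnt16, Dkk2 and Lgr5.

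Most ligands were lower in the acupuncture library by less than 2-fold. Wnt7b had 183 CPM with acupuncture (11523 counts) and 274 CPM without acupuncture (28021 counts), 1.5-fold lower (1.47 to 1.53). Wnt10a, which acts in skin appendages and teeth, had 6.91 CPM with acupuncture (435 counts) and 13.2 CPM without it (1351 counts), 1.91-fold lower (1.72 to 2.14), the ligand nearest to the lower limit. Wnt7a, known for limb and uterine patterning, had 4.94 CPM with acupuncture (311 counts) and 9.20 CPM without it (939 counts) and was 1.86-fold lower (1.64 to 2.12). These 3 ligands lay between the limits, each with an interval wholly below 1.

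Wnt4, the ligand of progesterone-driven branching in the mammary gland, had 52 counts with acupuncture and 151 without acupuncture, 1.79-fold lower (1.30 to 2.50). Wnt5a, the main ligand of beta-catenin-independent signalling, had 9.87 CPM with acupuncture and 14.6 without it and was 1.48-fold lower (1.35 to 1.63). Wnt6, Wnt11, Wnt1, Wnt2b and Wnt10b made up the rest of the 10 and ranged from 1.23-fold lower for Wnt10b to 1.65-fold lower for Wnt6. Wnt1, the mammary oncogene, was scarce in both libraries, at 32 counts with acupuncture and 84 without it. Wnt7b, Wnt5a and Wnt11 share 324, 358 and 364 exon bases with a gene on the opposite strand in GENCODE M21. The gene overlapping Wnt7b had 63 counts with acupuncture and 161 without it. Such overlaps also touch Fzd5 (1233 bases), Ctnnb1 (759), Rspo3 (404), Sfrp2 (347), Axin2 (209), Tcf7l1 (179) and Fzd6 (152). As the strand setting of the counts is not given, reads there cannot be told apart. Summed over the 14 ligands the level was 246 CPM with acupuncture and 356 CPM without acupuncture, a ratio of 0.692, and without Wnt7b the ratio was 0.776.

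The ligands that did not follow were Wnt16, Wnt5b, Wnt9a and Wnt2. Wnt16, a ligand known for its part in cortical bone, had 58 counts with acupuncture and 20 without it, or 0.922 CPM with acupuncture and 0.196 CPM without it, 4.71-fold higher (2.79 to 8.26). Its level with acupuncture was thus close to that of Wnt4 in the same library, at 0.211 CPM per kb for Wnt16 against 0.197 for Wnt4. Wnt5b had 2.18 CPM with acupuncture and 1.29 without it, 1.68-fold higher (1.32 to 2.16), and Wnt9a had 14.1 CPM with acupuncture and 12.0 without it, 1.18-fold higher (1.08 to 1.28). The interval of Wnt2, a ligand of stromal cells, held 1, at 6.26 CPM with acupuncture and 5.97 without it. The median log2 ratio of the ligands was -0.57 and stayed below 0 under the 5 other scalings (-0.59 to -0.08), though Wnt10b and Wnt2b turned positive when the epithelial marker list was set to 0. Under that scaling 3 ligands had an interval below 1 and 5 had one above 1.

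**Figure D2:**
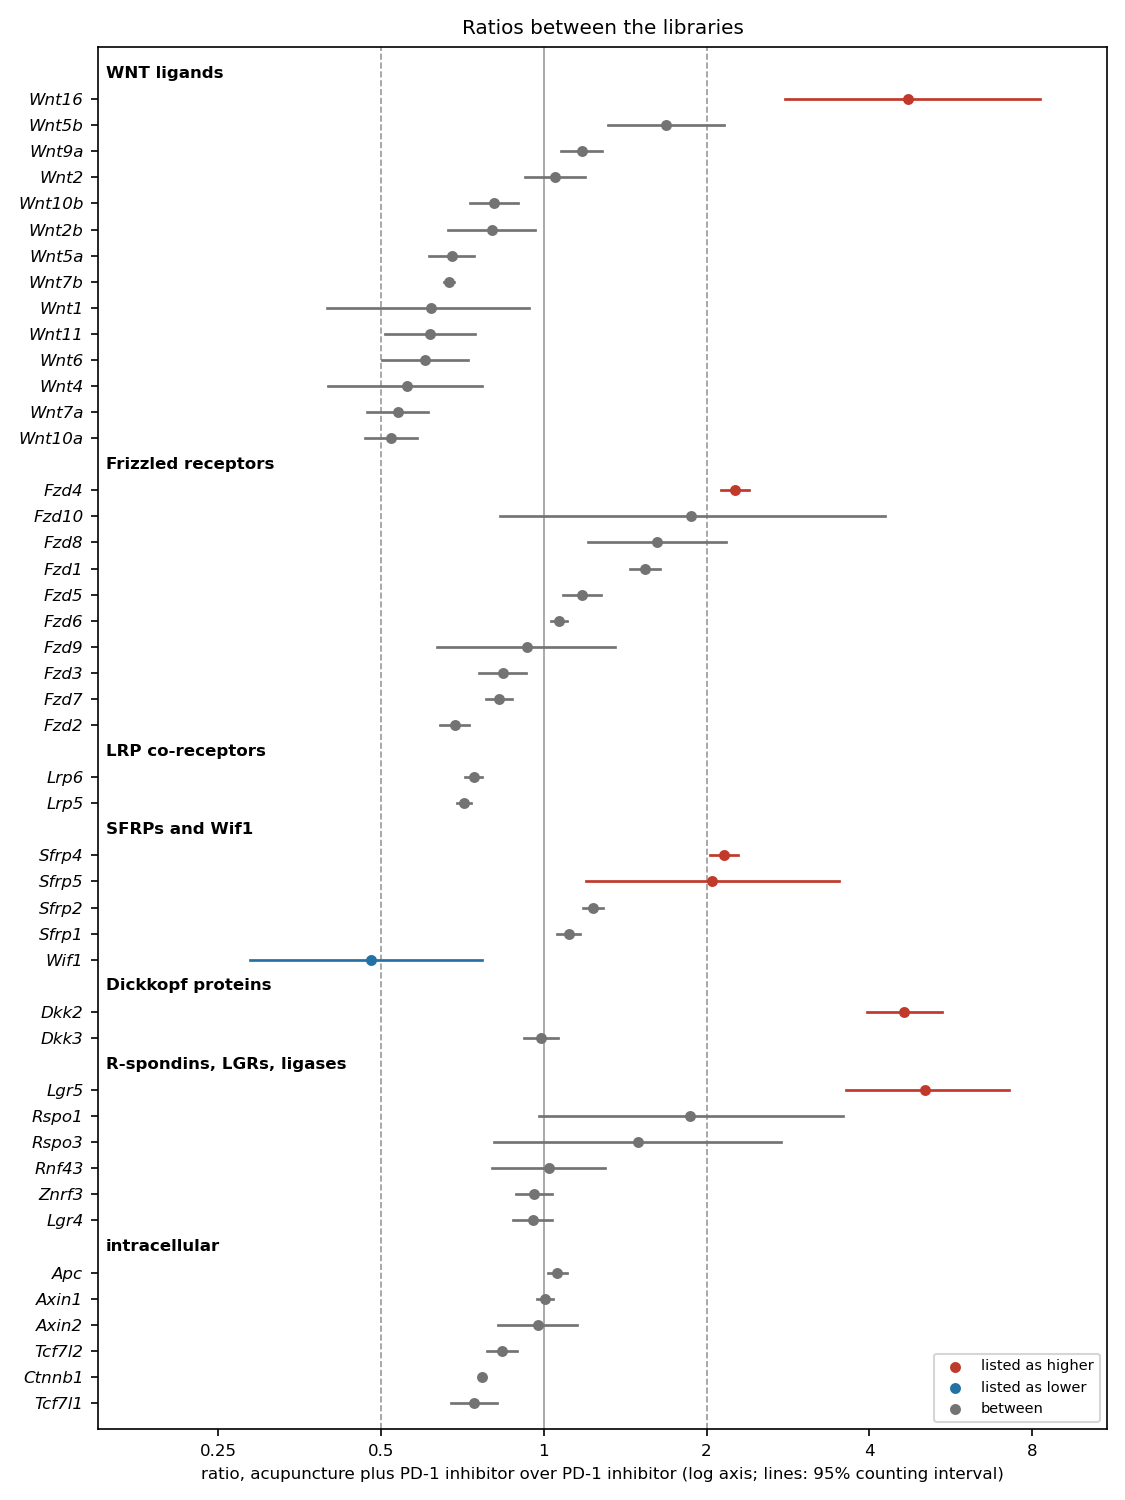
Ratio of each gene, acupuncture plus PD-1 inhibitor over PD-1 inhibitor, on a log axis with its 95% counting interval as a line; the solid vertical line is 1 and the dashed lines are the 2-fold limits. Of the 14 ligands 10 lie left of 1 without reaching the lower limit, and Lgr5, Wnt16 and Dkk2 lie beyond 4-fold on the right.

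Among the Frizzled receptors, which bind WNT ligands through a cysteine-rich domain, 1 of 10 was listed as higher and none as lower. Fzd4, also the receptor of the non-WNT ligand Norrin, had 39.7 CPM with acupuncture (2499 counts) and 17.6 CPM without acupuncture (1795 counts), 2.26-fold higher (2.13 to 2.40). Its rank within the family was the fifth in both libraries, at 5.91 CPM per kb with acupuncture and 2.62 without it. Fzd6, the most abundant receptor per length, had 19.3 CPM per kb with acupuncture and 18.1 without it and a ratio of 1.07 (1.03 to 1.10). The intervals of 5 receptors lay above 1 and those of 3 below it. With the epithelial list set to 0 those of 8 lay above 1 and none below. Under that scaling 4 receptors were listed as higher, where 17.7% of all genes were.

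The close relatives Fzd1, Fzd2 and Fzd7 lay on opposite sides of 1. Fzd1 had 28.8 CPM with acupuncture and 18.8 CPM without acupuncture, 1.54-fold higher (1.44 to 1.64). Fzd2 had 23.4 CPM with acupuncture and 34.2 without it, 1.46-fold lower (1.37 to 1.55), and Fzd7 had 30.6 CPM with acupuncture and 37.1 without it, 1.21-fold lower (1.15 to 1.28). Per length, Fzd1 stood beside both with acupuncture, at 6.87 CPM per kb against 6.75 for Fzd7 and 6.40 for Fzd2, and below both without acupuncture, at 4.47 against 8.18 for Fzd7 and 9.34 for Fzd2. Reads of these similar genes could be shared, and the counting program is not given. Fzd8 (96 counts in each library) was 1.62-fold higher after scaling (1.21 to 2.18), Fzd5 was 1.18-fold higher and Fzd3 1.19-fold lower. The intervals of Fzd9 and Fzd10 held 1. The family median log2 ratio was 0.16 and stayed above 0 under the other scalings (0.14 to 0.66), but Fzd3, Fzd7 and Fzd9 turned positive with the epithelial list set to 0, and Fzd9 also under total counts and totals without the 10 most abundant genes.

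The co-receptors were both lower by less than 2-fold. Lrp5 had 97.9 CPM with acupuncture (6162 counts) and 138 CPM without acupuncture (14054 counts), 1.41-fold lower (1.36 to 1.45). Lrp6 had 70.8 CPM with acupuncture (4457 counts) and 95.5 CPM without it (9748 counts), 1.35-fold lower (1.30 to 1.40). Their relation to each other was alike in both libraries, with Lrp5 at 66.0% of the summed level per kb with acupuncture and 66.9% without it. Their median log2 ratio of -0.46 became 0.03 with the epithelial list set to 0.

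Of the Dickkopf genes that were measured, 1 was listed as higher and the other lay near 1. Dkk2, which binds LRP5 and LRP6, had 611 counts with acupuncture and 214 without it, or 9.71 CPM with acupuncture and 2.10 CPM without it, 4.63-fold higher (3.96 to 5.44). Dkk3, a divergent family member that is not a classical WNT antagonist, had 18.4 CPM with acupuncture and 18.6 without it, a ratio of 0.989 (0.919 to 1.06), and its interval lay above 1 with the epithelial list set to 0. Dkk2 was thus 32.4% of the Dickkopf level per kb with acupuncture and 9.28% without acupuncture, while Dkk1 and Dkk4 had 0 counts in both libraries. With 3 counts as the floor, 0 counts allow up to 0.0477 CPM with acupuncture and 0.0294 CPM without acupuncture.

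Secreted Frizzled-related proteins, which resemble the ligand-binding domain of Frizzled, were higher to differing degrees. Sfrp4 had 39.7 CPM with acupuncture (2495 counts) and 18.4 CPM without acupuncture (1879 counts), 2.15-fold higher (2.03 to 2.29). Sfrp2, the most abundant of them and a product of fibroblasts, had 57.4 CPM with acupuncture and 46.5 without it, 1.23-fold higher (1.18 to 1.29), and Sfrp1 had 44.9 CPM with acupuncture and 40.3 without it, 1.11-fold higher (1.06 to 1.17). Sfrp4 had 20.2% of the level per kb of this group with acupuncture and 12.3% without acupuncture. Sfrp5, at 34 counts with acupuncture and 27 without it, was 2.04-fold higher with a wide interval (1.20 to 3.52). Wif1, which binds WNT ligands through its own WIF domain, had 23 counts with acupuncture and 78 without it and was the single listed gene that was lower, at 2.09-fold (1.30 to 3.49). Under total counts, totals without the 10 most abundant genes and the epithelial scaling Wif1 was no longer listed, at log2 ratios of -0.92, -0.92 and -0.55. Sfrp2 shares 347 of its 2153 exon bases with an opposite-strand gene in GENCODE M21, whereas none of the 7 listed genes shares exon bases with another gene there.

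Of the R-spondin arm, here the 6 measured genes among the 45, Lgr5 alone was listed. The R-spondin receptor Lgr6, which is outside the 45 genes, was listed as lower (ratio 0.390, 0.365 to 0.415) and is described below. Lgr5, the R-spondin receptor that marks stem cells of the intestine and hair follicle, had 144 counts with acupuncture and 46 without it, or 2.29 CPM with acupuncture and 0.451 CPM without it, 5.08-fold higher (3.62 to 7.24), the highest ratio among the 45 genes. It remained scarce beside Lgr4, its broadly expressed relative, at 0.223 CPM per kb with acupuncture against 2.36 for Lgr4 in the same library. Lgr4 had 13.9 CPM with acupuncture and 14.5 without it with an interval that held 1 (ratio 0.954, 0.876 to 1.04).

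The intervals of the ubiquitin ligases that clear Frizzled from the membrane held 1. Znrf3 had 16.7 CPM with acupuncture and 17.4 CPM without acupuncture (ratio 0.960, 0.889 to 1.04), and Rnf43 had 1.81 CPM with acupuncture and 1.77 without it (ratio 1.02, 0.801 to 1.30). The ligands of this arm were scarce, with Rspo1 at 23 counts with acupuncture and 20 without it and Rspo3 at 23 with acupuncture and 25 without it. Rspo2, with 5 counts with acupuncture and 2 without it, stayed under the count limit, as did Rspo4. The interval of Rspo1 (0.980 to 3.58) and that of Rspo3 (0.810 to 2.74) held 1. Whether these genes were listed turned on the scaling: Rspo1 was listed as higher under total counts and totals without the 10 most abundant genes, and both Rspo1 and Rspo3 with the epithelial list set to 0. Under that last scaling all 6 intervals of the R-spondin arm lay above 1, those of Lgr4, Znrf3 and Rnf43 included.

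The intracellular members lay between the limits without exception among the 6. Ctnnb1, beta-catenin itself, had 784 CPM with acupuncture (49303 counts) and 1019 CPM without acupuncture (103995 counts), 1.30-fold lower (1.29 to 1.31). The transcription factors Tcf7l1 and Tcf7l2 were lower by less than 2-fold, Tcf7l1 at a ratio of 0.744 (0.673 to 0.821) and Tcf7l2 at 0.837 (0.785 to 0.892). The scaffolds of the destruction complex stayed close to 1, with Axin1 at a ratio of 1.01 (0.970 to 1.04) and Apc at 1.06 (1.02 to 1.10). Axin2, a feedback gene commonly read as a sign of beta-catenin activity, had 228 counts with acupuncture and 379 without it, or 3.62 CPM with acupuncture and 3.71 CPM without it, with a ratio of 0.976 (0.825 to 1.15). This interval excludes a 2-fold difference of Axin2 in either direction between these libraries. With the epithelial list set to 0 the signs of Ctnnb1, Tcf7l1, Tcf7l2 and Axin2 turned positive, and that of Axin2 also under total counts and totals without the 10 most abundant genes.

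Further genes of the pathway, in 7 lists of 80 genes of which 78 were measured, had 7 listed as higher and 3 as lower, with a median log2 ratio of -0.16. These counts are 8.97% higher and 3.85% lower, near the 9.21% and 4.9% over all genes. Tcf7 and Lef1, the TCF-family factors of T cells, differed most among the transcription partners. Tcf7 had 34.5 CPM with acupuncture and 10.3 CPM without acupuncture, 3.36-fold higher (3.12 to 3.62), and Lef1 had 11.2 CPM with acupuncture and 2.79 without it, 4.01-fold higher (3.49 to 4.62). The co-repressor Tle4 was 2.16-fold higher (1.99 to 2.34) and the beta-catenin co-activator Pygo1 2.15-fold higher (1.64 to 2.84). The other 12 of 16 transcription partners lay between, each with an interval below 1 under the main scaling. Markers of T cells, the best known source of Tcf7 and Lef1, were higher in the same library, 10 of 10 listed, with a summed level of 133 CPM with acupuncture and 24.9 CPM without acupuncture. The part of T cells in the levels of Tcf7 and Lef1 was not tested.

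Genes that WNT signalling can induce had 3 of 19 listed as higher, namely Tcf7, Lef1 and Prox1, and none as lower. That is 15.8% higher, against 9.21% higher and 4.9% lower over all genes, and with so few genes nothing is read from the difference. Prox1, the transcription factor of lymphatic endothelium, had 57 counts with acupuncture and 19 without acupuncture, 4.87-fold higher (2.85 to 8.66). Prox1 was also counted among the lymphatic markers, and Tcf7 and Lef1 among the transcription partners. The most abundant of the target genes, Ccnd1, which encodes cyclin D1, was 1.21-fold lower (ratio 0.824, 0.815 to 0.832). Myc was 1.30-fold higher (1.26 to 1.34), the feedback inhibitor Nkd1 1.77-fold higher (1.35 to 2.32) and the ligand-inactivating enzyme Notum had a ratio of 0.868 (0.804 to 0.936). The target genes therefore had no common direction, with 8 intervals above 1, 10 below it and a median log2 ratio of -0.14.

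Of the genes for ligand secretion, Porcn, the acyltransferase that attaches the lipid to WNT ligands, had 6.72 CPM with acupuncture and 13.5 CPM without acupuncture, 2.005-fold lower (1.80 to 2.24), just past the limit. Wls, which carries the ligands to the cell surface, had 200 CPM with acupuncture and 221 without it (ratio 0.902, 0.883 to 0.922). Lgr6, a further R-spondin receptor, had 1169 counts with acupuncture and 4869 without it and was 2.57-fold lower (2.41 to 2.74), so Lgr5 and Lgr6 lay on opposite sides of 1. The planar polarity cadherin Celsr3, at 53 counts with acupuncture and 202 without it, was 2.35-fold lower (1.73 to 3.24), and the other 12 of 13 planar polarity genes lay between. Among further extracellular inhibitors Sostdc1, at 17 counts with acupuncture and 3 without it, had a ratio of 9.19 (2.66 to 49.0), and Dkkl1, at 43 counts with acupuncture and 34 without it, was 2.05-fold higher (1.28 to 3.32). None of the 15 genes of signal relay and the destruction complex was listed. Under the main scaling 12 of them had an interval below 1, with a list median log2 ratio of -0.26. This direction depends on the scaling, as the epithelial scaling raised all ratios, to a median over all genes of 0.49. With the epithelial list set to 0, Porcn, Lgr6 and Celsr3 were no longer listed, and Porcn was also not listed under total counts (0.535), totals without the 10 most abundant genes (0.535) and upper quartile scaling (0.507).

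**Figure D3:**
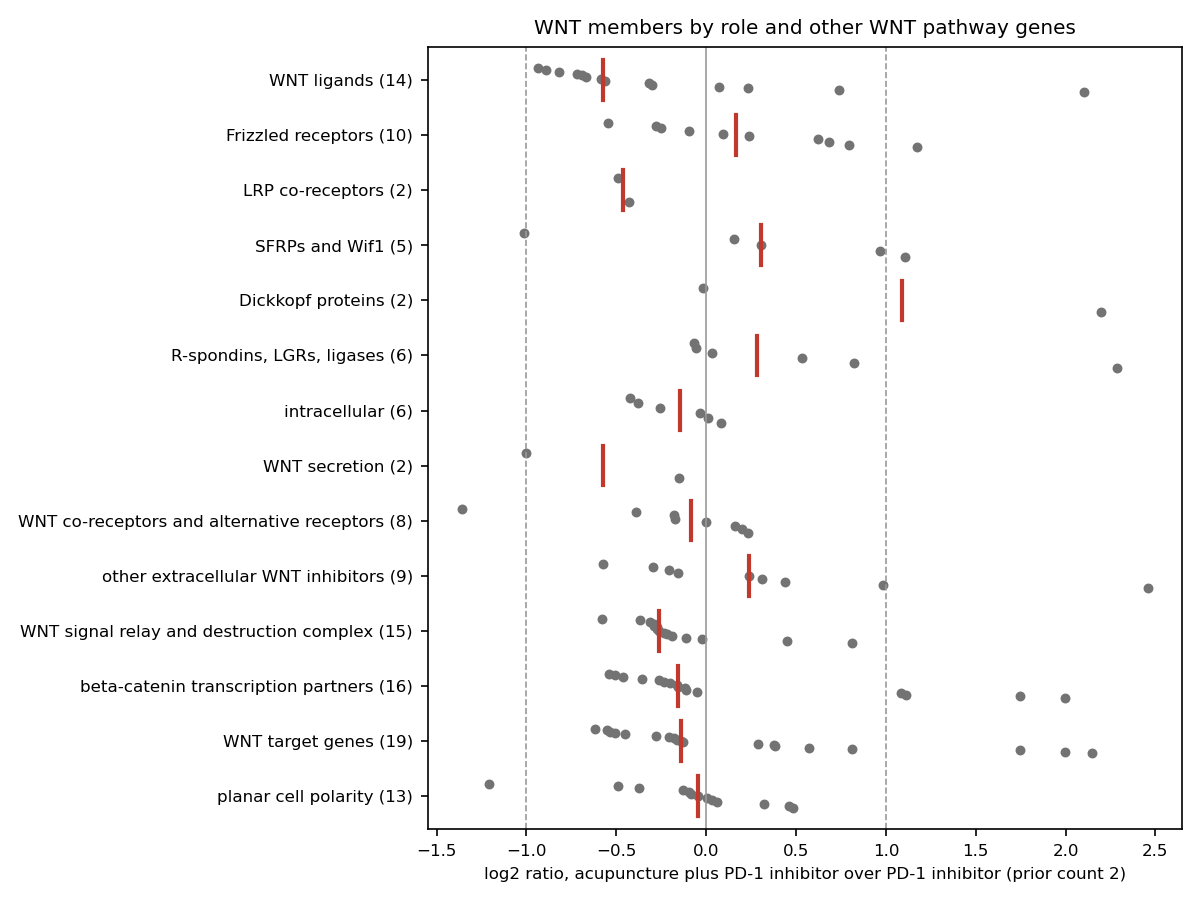
Log2 ratios (acupuncture plus PD-1 inhibitor over PD-1 inhibitor, prior count 2) of the 45 genes by role and of the further pathway genes by list, each point a gene, the red bar the median and the number of genes in parentheses; dashed lines mark a log2 ratio of 1 and -1. The ligand points gather left of 0 around a median of -0.57, and the transcription partners split into 12 genes left of 0 and 4 genes right of 1.

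Cell type markers moved between the same libraries. In bulk tissue, fewer cells of a type and less RNA per cell cannot be told apart. The 12 epithelial markers were all detected in this tissue, which is labelled as breast tumour, and 10 of the 12 had an interval below 1, with a median log2 ratio of -0.49 and a summed level of 3200 CPM with acupuncture and 4779 CPM without acupuncture. The ligand median of -0.57 and the co-receptor median of -0.46 lay near this value, as did the blood endothelial marker median of -0.50. The part of epithelium in the levels of ligands and co-receptors was not tested. Fibroblast markers had 2 of 12 higher, a median of 0.50 and summed levels of 10462 CPM with acupuncture and 7725 without it. Beside them, Sfrp2, named above as a product of fibroblasts, stood at a log2 ratio of 0.30. Wnt2, named above as a ligand of stromal cells, stood at 0.07. The part of fibroblasts in these levels, or in those of Fzd1, Sfrp4 and Dkk2, was not tested.

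Most markers of fat, muscle, lymph node and further cell types were higher in the acupuncture library. Of 10 adipocyte markers 9 were listed as higher (median log2 ratio 2.08, summed level 1651 CPM with acupuncture and 496 CPM without acupuncture), as were all 10 of skeletal muscle (median 2.76, summed level 2190 CPM with acupuncture and 231 without it) and 6 of 7 of lymph node stroma and follicle (median 6.68, summed level 196 CPM with acupuncture and 5.88 without it). Of 6 markers each, lymphatic endothelium had 3 higher (summed level 145 CPM with acupuncture and 68.8 without it), brown fat 5 (60.5 CPM with acupuncture and 25.2 without it) and nerve 3 (38.7 CPM with acupuncture and 32.2 without it). Ccl21a, at 63.5 CPM with acupuncture and 0.245 without it, was counted in both the lymphatic and the lymph node list. The lymphatic marker Flt4 was 1.60-fold lower (1.37 to 1.87). All 8 B cell markers were higher (120 CPM with acupuncture and 3.11 without it). The brown fat marker Elovl3 and the B cell marker Fcmr had 0 counts without acupuncture. The part of these tissues and cells in the levels of Dkk2, Sfrp4, Sfrp5, Fzd4, Lgr5 and Wnt16 was not tested.

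Markers of further cell types differed in direction. Blood endothelial markers had none of 8 higher and 1 lower, with a median of -0.50 and summed levels of 192 CPM with acupuncture and 261 CPM without acupuncture, and 2 of the 8, Kdr and Tek, had an interval above 1. The part of endothelium, which also expresses Fzd4, in the level of Fzd4 was not tested. Of 12 markers of skin and hair follicle, where Lgr5 is well known, only 3 reached 20 counts. Krt1, Flg, Krt71 and Krt25 had 0 counts in both libraries. The summed levels of the 12 were 5.32 CPM with acupuncture and 7.84 without it. Of the 3, Tchh was listed as higher (2.14-fold, 1.24 to 3.76), Krt15 as lower (ratio 0.198), and the interval of Krt10 held 1. The part of skin and hair follicle in the level of Lgr5 was not tested. Basal and myoepithelial markers had 1 of 8 lower and none higher (265 CPM with acupuncture and 340 without it), pericyte and smooth muscle markers 3 of 8 higher (294 CPM with acupuncture and 228 without it), macrophage markers 1 of 8 lower (1436 CPM with acupuncture and 1916 without it) and neutrophil markers 6 of 6 lower (145 CPM with acupuncture and 517 without it).

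**Figure D4:**
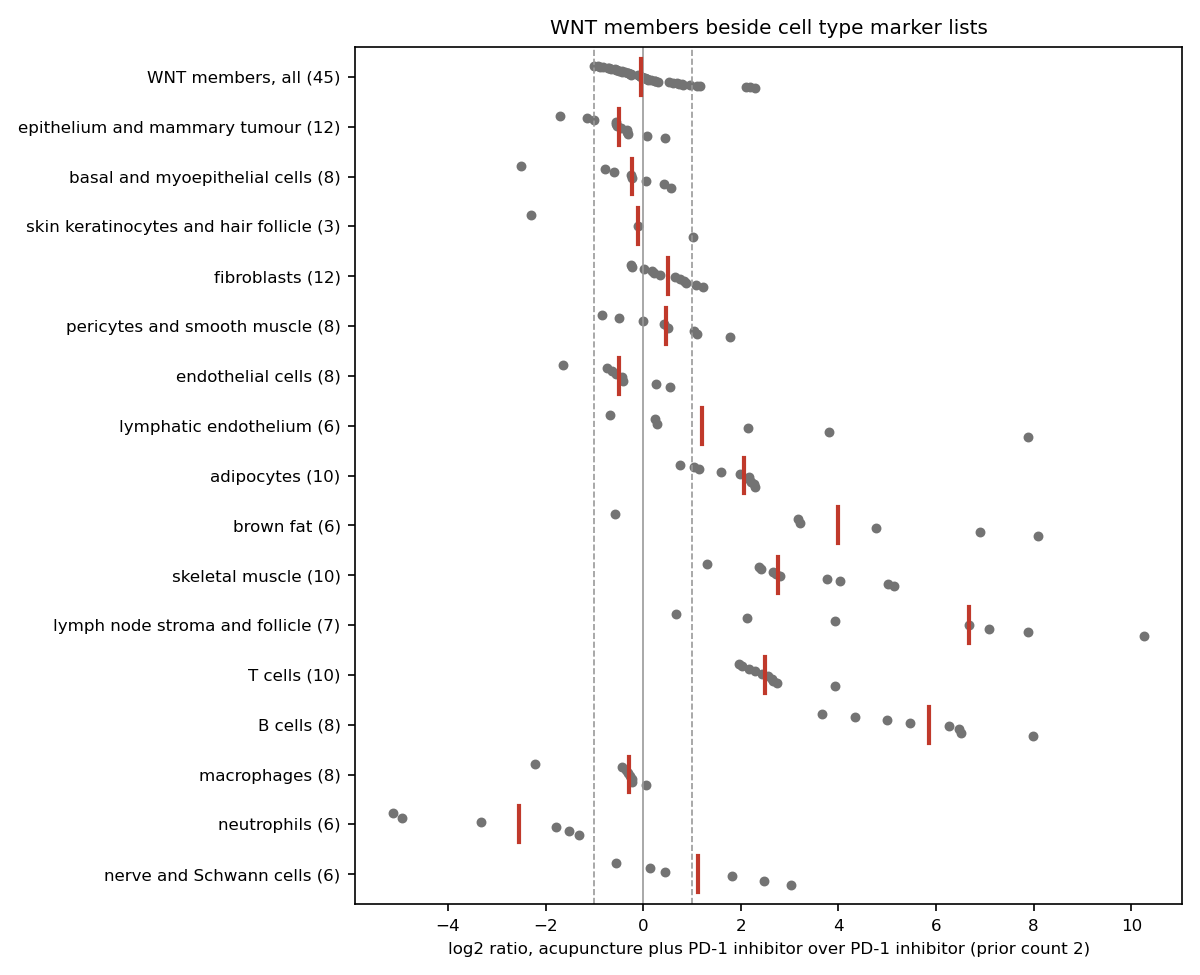
Log2 ratios (acupuncture plus PD-1 inhibitor over PD-1 inhibitor, prior count 2) of the 45 WNT genes in the top row and of cell type marker lists below, each point a gene, the red bar the median and the number of genes in parentheses. The WNT genes spread around a median of -0.03, epithelial markers around -0.49 and fibroblast markers around 0.50, with fat, muscle, lymph node, T cell and B cell markers to the right.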

How the data were processed

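The authors deposited raw read counts per gene symbol, 1 column per library, and 0 lines named no gene. Per the labels' protocols RNA came from a column kit and libraries from a SMARTER mRNA kit, and the submitters' processing notes name GRCm39 and mm39. The aligner, counting program, annotation and strand setting were not found there (not given in the sources used here).

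Library sizes were scaled with TMM (edgeR 4.0.16, R 4.3.3) over genes with at least 20 counts in both libraries together, with factors of 1.04 for acupuncture plus PD-1 inhibitor and 0.966 for the PD-1 inhibitor. Ratios have exact Clopper-Pearson 95% intervals from the binomial split of the deposited counts. No molecular identifiers are named in the labels, so reads need not be separate molecules, and the intervals and floors reflect counting error alone. Log2 ratios carry a prior count of 2. Exon lengths come from GENCODE M21 (all 54 symbols matched), and 28 of 45 genes had a RefSeq promoter entry. The genes and lists were chosen with earlier results of these data known. Within them the text gives in full the listed genes and the most abundant of each role, and summarises others. Calculations were tested on simulated data. Other scalings (total counts, upper quartile, DESeq2 1.42.0 size factors, totals without the 10 most abundant genes, epithelial markers), limits, priors and thinning were tried as alternatives. Python 3.11.15 with scipy 1.17.1 was used.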

Additional observations from a re-analysis of the deposited data

How the results depend on the processing

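The 6 genes listed as higher stayed listed under all 5 other scalings and with the deeper library thinned, and none of the listed genes changed sign under any alternative. Scaling by total counts or by totals without the 10 most abundant genes raised the median log2 ratio over all tested genes to 0.10, listed 0 WNT genes as lower, added Rspo1 as higher, and turned the WNT median of -0.03 to 0.0658 and 0.0662. Over all genes both of these scalings listed 10.4% as higher and 4.1% as lower. With the epithelial list set to 0, the median over all genes rose to 0.49, and 89.5% of listed genes were higher (65.3% under TMM). Under that scaling 12 WNT genes were higher and 0 lower, where 17.7% of all genes were higher and 2.09% lower. The WNT median was then 0.45, and 0 further pathway genes were lower. These shifts follow from the scaling itself. With a minimum of 100 counts Wnt16 and Sfrp5 dropped out and 4 further pathway genes were higher instead of 7. At that minimum 6.92% of all genes were higher. A 1.5-fold limit listed 9 WNT genes as higher and 7 as lower, of which 6 were ligands, where 14.3% and 10.3% of all genes were listed. A 4-fold limit left 3 higher (Lgr5, Wnt16 and Dkk2) and 0 lower, with 3 and 0 further pathway genes. At that limit 3.63% of all genes were higher and 1.40% lower. Calls at the 2-fold limit (Sfrp5, Wif1, Porcn, Dkkl1) rest on ratios close to it. No paired analysis was possible because each group had 1 library.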
